A study of Mus musculus with 10 samples.

Results

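Expression of 7 genes of MHC class II antigen presentation was examined in the renal cortex of 10 FVB/N mice, measured on Affymetrix mouse arrays with 1 array per mouse. The genes were H2-Aa, H2-Ab1, H2-Eb1, H2-DMa, H2-DMb1, Cd74 and Ciita. They were chosen by name, but with earlier results of these data known. All except H2-DMb1 are among the 18193 genes that have a probe set of their own in the annotation of the array, and 14 probe sets belong to these 6 genes. H2-DMb1 is measured by 2 probe sets that also detect its near-identical neighbour H2-DMb2, so its values are those of both genes together. The probe set with the highest mean level stands for each gene, and all 16 probe sets are described.

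In 1 group of 5 mice the drug was aliskiren, an inhibitor of renin, at 50 mg/kg per day. The other 5 mice received losartan, an antagonist of the angiotensin II type 1 receptor, at 500 mg/l. Every mouse was 20 weeks old, had undergone partial ablation of a kidney and then uninephrectomy, and had been treated for 6 weeks. The drug was begun when 6 weeks had passed since the ablation and 4 weeks since the uninephrectomy. Untreated and unoperated mice were not analysed here, so the comparison of aliskiren with losartan shows how the drugs differ and not what either drug does. The mice are numbered 1 to 5 within each drug, and the labels do not say that the numbers link mice across drugs.

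MHC class II molecules carry peptides from proteins that a cell has taken up and broken down in endosomes, and display them to CD4+ T cells. An alpha and a beta chain, encoded by H2-Aa and H2-Ab1 for the A molecule of the mouse, assemble in the endoplasmic reticulum with the invariant chain Cd74, which fills the groove and guides the complex to endosomes. There cathepsins cut the invariant chain down to a fragment called CLIP, and the DM heterodimer of H2-DMa and H2-DMb exchanges CLIP for peptide. Transcription of these genes depends on a promoter with W, X and Y boxes, bound by RFX, CREB family and NF-Y proteins, and on the coactivator CIITA. In the kidney, class II is carried mainly by dendritic cells and macrophages of the interstitium, and tubular cells can acquire it under interferon gamma.

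The promoters of 3 genes are shown because they share the boxes through which CIITA acts on the class II genes. Each line holds the 150 bases before the RefSeq transcription start in the GRCm38.p6 assembly of the mouse genome, 5′ to 3′ on the strand of the gene. That assembly is from C57BL/6J and not from FVB/N, whose H2 haplotype differs. H2-Aa lies at chr17:34287824-34287973 on the minus strand, H2-Eb1 at chr17:34305717-34305866 on the plus strand and H2-DMb1 at chr17:34153041-34153190 on the plus strand. Capitals mark CCAAT, the core of the Y box (ATTGG on the opposite strand), CTNGNAACT, an X box core, and TGACG, a core of the X2 box (CGTCA on the opposite strand).
H2-Aa: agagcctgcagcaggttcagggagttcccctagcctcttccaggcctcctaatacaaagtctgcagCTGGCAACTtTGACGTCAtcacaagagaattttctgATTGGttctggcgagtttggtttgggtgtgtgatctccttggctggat
H2-Eb1: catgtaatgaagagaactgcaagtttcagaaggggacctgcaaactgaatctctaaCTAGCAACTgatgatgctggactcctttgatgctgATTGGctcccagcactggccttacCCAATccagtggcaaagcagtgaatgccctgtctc
H2-DMb1: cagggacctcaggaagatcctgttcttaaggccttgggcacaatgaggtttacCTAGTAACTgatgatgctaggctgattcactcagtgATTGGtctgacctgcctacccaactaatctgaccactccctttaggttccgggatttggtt

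In these 3 windows the X box core stood upstream of an inverted CCAAT. Counting the base before the start as -1, the X core spanned -84 to -76 in H2-Aa, -94 to -86 in H2-Eb1 and -97 to -89 in H2-DMb1. The inverted CCAAT followed at -48 to -44 in H2-Aa, at -59 to -55 in H2-Eb1 and at -61 to -57 in H2-DMb1. H2-Eb1 held a second CCAAT, on its own strand, at -35 to -31. TGACG was found in H2-Aa only of the 3, at -74 to -70 and, on the opposite strand and overlapping it, at -71 to -67. Searched on both strands of 32851 promoter windows of the same length, CCAAT was present in 24.5%, TGACG in 13.3%, the X core in 2.00%, and the X core together with CCAAT in 0.517%. The letters of the X core were chosen after these sequences had been read, so its share describes the motif and tests nothing. The interferon gamma activated site TTCNNNGAA, present in 4.09% of windows, and the interferon response element, present in 1.59%, had no match in these 3 windows. The windows of H2-DMa, which has 2 annotated start sites, held none of the motifs.

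The arrays were close to each other in their overall distribution, with medians of 5.53 to 5.57 on the log2 scale. Losartan mouse 3 stood apart: its mean correlation with the other arrays was 0.981, against 0.991 to 0.993 for the other 9. This array also carried the highest mean level of a list of perirenal fat genes, 10.34, while the aliskiren mice lay between 4.82 and 8.01 and the other losartan mice between 4.90 and 4.98. Aliskiren mouse 3, at 8.01, and aliskiren mouse 2, at 6.16, came next. The differences, list medians and correlations that follow are therefore given without losartan mouse 3 as well where it moves them. The proximal tubule genes Lrp2, at 12.50 to 13.27, and Slc34a1, at 12.65 to 13.34, had high values. So did Umod of the thick limb list, at 13.58 to 14.54, and Aqp2 of the medulla list, at 9.46 to 11.00. These levels therefore do not test the cortex label. A list of adrenal genes averaged 4.19 to 4.49 in aliskiren mice and 4.23 to 4.56 in losartan mice, below the level filter of 5.53, which is the median of all probe sets other than controls.

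H2-Aa, the alpha chain of the A molecule, had log2 values of 11.85, 10.82, 10.08, 10.72 and 11.06 in aliskiren mice 1 to 5, and of 10.84, 11.33, 12.47, 9.31 and 10.19 in losartan mice 1 to 5. Both the highest and the lowest of the 10 mice had received losartan, and all 5 aliskiren mice lay between them. The means were 10.91 ± 0.64 with aliskiren and 10.83 ± 1.19 with losartan (SD, n = 5 each). The difference, aliskiren minus losartan, was 0.08 (SE 0.53, 95% confidence interval -1.10 to 1.26, limma adjusted p = 0.995). On a linear scale the interval runs from 0.466-fold to 2.39-fold, so changes of about that size in either direction could not be resolved with 5 mice per drug.

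H2-Ab1, the beta chain that pairs with it, had 10.71, 10.04, 9.21, 10.02 and 10.004 in aliskiren mice 1 to 5, against 9.91, 10.54, 11.68, 8.64 and 9.03 in losartan mice 1 to 5. As for H2-Aa, losartan mouse 3 was the highest and losartan mouse 4 the lowest of all, and the drug groups overlapped. H2-Ab1 averaged 9.996 ± 0.53 with aliskiren and 9.96 ± 1.21 with losartan (SD, n = 5 each). The difference was 0.04 (SE 0.52, interval -1.12 to 1.19, limma adjusted p = 0.996).

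H2-Eb1, the beta chain of the E molecule, had 6.89, 6.62, 6.19, 6.46 and 6.56 in aliskiren mice 1 to 5, against 6.22, 6.91, 7.27, 5.73 and 6.14 in losartan mice 1 to 5. The extremes were again losartan mice 3 and 4. The aliskiren mean was 6.55 ± 0.25 and the losartan mean 6.45 ± 0.62 (SD, n = 5 each), and the difference 0.09 (SE 0.27, interval -0.50 to 0.68, limma adjusted p = 0.989). FVB/N mice have the H2q haplotype, in which the E alpha chain is not made, and H2-Ea is annotated as a transcribed pseudogene in RefSeq. Its probe set had 7.38 ± 0.16 with aliskiren and 7.38 ± 0.27 with losartan (SD, n = 5 each), and it ranged over 0.72 log2 units in the 10 mice, where H2-Eb1 ranged over 1.54.

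Cd74, the invariant chain, had 9.52, 8.46, 8.01, 8.73 and 8.53 in aliskiren mice 1 to 5, against 8.52, 9.06, 9.997, 7.35 and 7.97 in losartan mice 1 to 5. The mice followed nearly the order seen for H2-Aa, with losartan mouse 3 and aliskiren mouse 1 highest and losartan mouse 4 lowest. Cd74 averaged 8.65 ± 0.55 with aliskiren and 8.58 ± 1.02 with losartan (SD, n = 5 each), a difference of 0.07 (SE 0.46, interval -0.94 to 1.08, limma adjusted p = 0.995).

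H2-DMa, the alpha chain of the peptide exchange factor, had 8.32, 8.23, 7.47, 7.96 and 7.87 in aliskiren mice 1 to 5, against 7.94, 8.61, 9.40, 7.18 and 7.43 in losartan mice 1 to 5. The aliskiren mice spanned 0.85 log2 units and lay within the 2.22 units spanned by the losartan mice. Its mean was 7.97 ± 0.34 with aliskiren and 8.11 ± 0.90 with losartan (SD, n = 5 each), and the difference -0.14 (SE 0.38, interval -0.98 to 0.71, limma adjusted p = 0.989).

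The beta chains of DM, H2-DMb1 and H2-DMb2, were read together by their shared probe set at 8.78, 8.71, 8.15, 8.46 and 8.12 in aliskiren mice 1 to 5, against 8.58, 8.94, 9.73, 7.81 and 8.17 in losartan mice 1 to 5. Here too losartan mice 3 and 4 were the extremes. The means were 8.44 ± 0.30 with aliskiren and 8.65 ± 0.74 with losartan (SD, n = 5 each). In a fit over all 45037 probe sets the difference was -0.20 (SE 0.30, interval -0.86 to 0.46, limma adjusted p = 0.996). A probe set that detects H2-DMb2 alone had 6.36, 5.83, 5.00, 5.87 and 5.62 in aliskiren mice, against 5.74, 6.05, 7.17, 5.28 and 5.64 in losartan mice, with a difference of -0.24 (SE 0.35, limma adjusted p = 0.967). The share of the signal that came from H2-DMb1 cannot be told apart from that of H2-DMb2.

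Ciita, the coactivator that switches the class II genes on, had 5.73, 6.01, 5.20, 5.00 and 5.49 in aliskiren mice 1 to 5, against 5.07, 6.17, 6.28, 5.04 and 5.53 in losartan mice 1 to 5. Its mean over the 10 arrays, 5.55, lay just above the level filter of 5.53, so these values are near the array's lower range. Losartan mouse 3 was again the highest, while the lowest was aliskiren mouse 4. Ciita averaged 5.49 ± 0.40 with aliskiren and 5.62 ± 0.59 with losartan (SD, n = 5 each), a difference of -0.13 (SE 0.28, interval -0.76 to 0.50, limma adjusted p = 0.982).

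**Figure D1:**
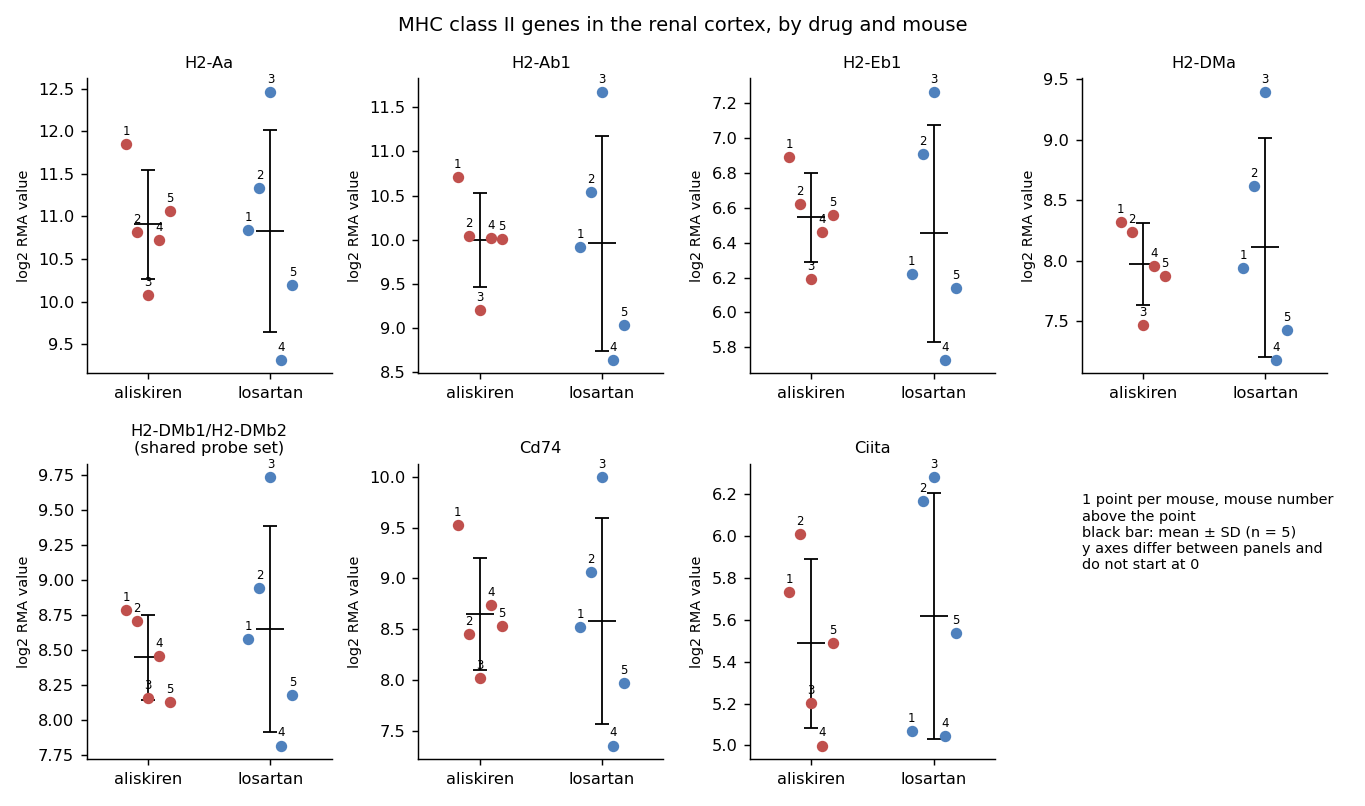
Log2 RMA value (y axis) of each of the 7 genes in the 10 mice, by drug (x axis), with 1 point and the mouse number per mouse and a black bar for the mean ± SD over 5 mice. In every panel losartan mouse 3 is the highest point, the losartan mice spread over a wider range than the aliskiren mice, and the groups overlap.

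None of the 6 genes tested changed between the drugs at a limma adjusted p under 0.05, and 0% of the 11486 genes tested did. The smallest adjusted p among the 6 was that of Ciita, 0.982. At an unadjusted p under 0.05 there were 0 of the 6, where 4.72% of all genes tested passed, and without moderation of the variance 573 genes did. The drug groups overlapped for all 7 genes, where 0.914% of all genes tested had groups that did not overlap. Among all genes tested the median difference was -0.01 and 46.2% of the differences were positive.

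Variation between mice of the same drug was large for these genes. Over the 10 mice H2-Aa spanned an 8.89-fold range, H2-Ab1 8.22-fold, Cd74 6.26-fold, H2-DMa 4.65-fold, the shared DM beta probe set 3.78-fold, H2-Eb1 2.91-fold and Ciita 2.43-fold. Among the 11486 genes tested, the SD over the 10 mice of H2-Aa lay at percentile 99.0, that of H2-Ab1 at 98.9, Cd74 at 98.3, H2-DMa at 97.2, Ciita at 94.2 and H2-Eb1 at 93.3. The drug accounted for between 0.0472% (H2-Ab1) and 3.88% (the shared DM beta probe set) of a gene's sum of squares over the mice. Within aliskiren the 7 genes ranged over 0.66 to 1.78 log2 units, and within losartan over 1.24 to 3.15. In cortex as a whole, fewer class II bearing cells and less class II RNA per cell cannot be told apart.

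The differences depended on losartan mouse 3. Without it the aliskiren minus losartan difference was 0.49 (SE 0.43) for H2-Aa, 0.47 for H2-Ab1, 0.42 for Cd74 and 0.30 for H2-Eb1. The differences of H2-DMa, 0.18, of the shared DM beta probe set, 0.07, and of Ciita, 0.03, changed sign from negative to positive. The adjusted p of H2-Aa in that limma fit was 0.947, and 0 of the 6 genes tested passed. Leaving out losartan mouse 4 instead gave -0.30 for H2-Aa, -0.29 for H2-Ab1 and -0.24 for Cd74, and without losartan mouse 5 or without aliskiren mouse 1 these 3 genes were negative too. Without losartan mouse 2, Ciita was at 0.00544. The sign of these small differences thus rested on single mice.

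The other probe sets of H2-Aa and H2-Ab1 and of the DM beta genes gave similar differences. For H2-Aa the difference was 0.22 with probe set 1435290_x_at, 0.15 with 1438858_x_at and 0.04 with 1443783_x_at, which lay at a low level of 3.32 with aliskiren and 3.28 with losartan. Their correlations with the main probe set over the 10 mice were 0.990, 0.972 and 0.952 in that order. H2-Ab1 had differences of 0.04 with 1425477_x_at and 0.13 with 1451721_a_at, which correlated with its main set at 0.996 and 0.997. The second probe set shared by H2-DMb1 and H2-DMb2, 1418638_at, differed by -0.19 and correlated at 0.962.

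Second probe sets of H2-DMa and Ciita did not follow their main sets as closely. The H2-DMa probe set 1459872_x_at, at 4.59 with aliskiren and 4.57 with losartan, lay below the level filter and correlated with the main set at only 0.235. For Ciita, 1421210_at differed by 0.12 and 1447075_at by 0.04, where the main set 1421211_a_at differed by -0.13. The correlation with the main set was 0.623 for 1421210_at and 0.742 for 1447075_at. Averaged over its 3 probe sets, Ciita differed by 0.01.

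**Figure D2:**
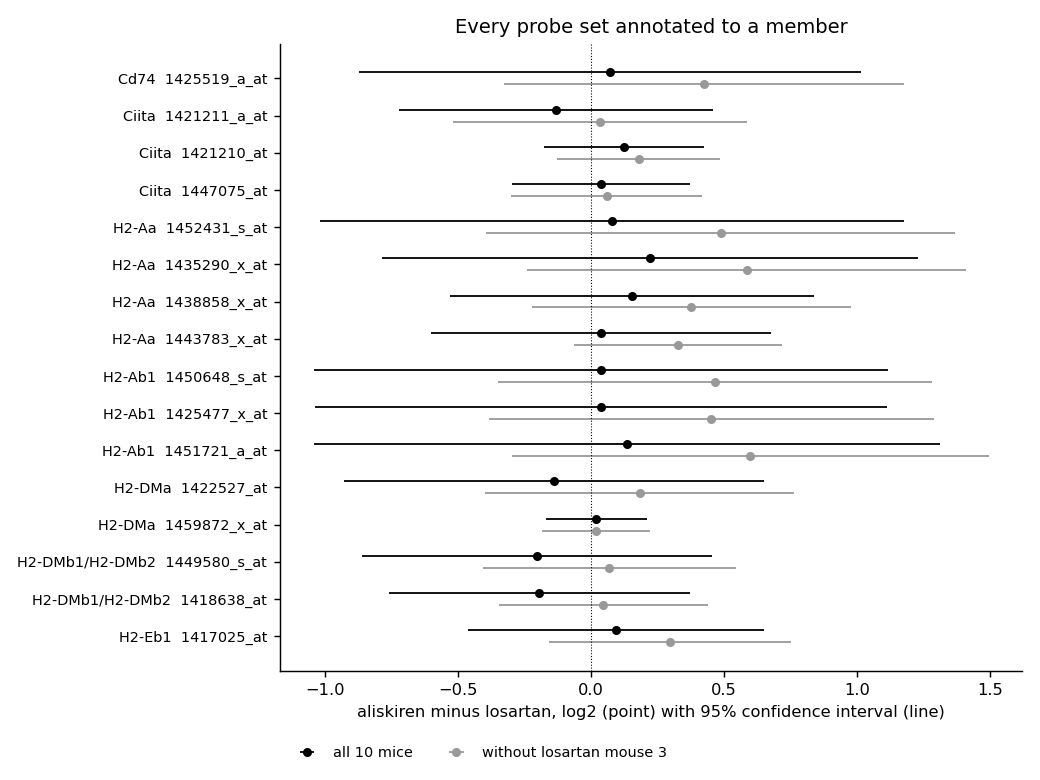
Aliskiren minus losartan difference on the log2 scale (x axis) for each of the 16 probe sets (y axis), with its 95% confidence interval from the fit over all probe sets, for all 10 mice in black and without losartan mouse 3 in grey. Every interval includes 0, and every grey point lies to the right of its black point except that of the H2-DMa probe set 1459872_x_at, where the points coincide.

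The 7 genes varied together from mouse to mouse. Among the 15 pairs that do not include Ciita, Pearson's r over the 10 mice ran from 0.892 to 0.985 and Spearman's rho from 0.782 to 0.976. H2-Aa and Cd74 had the highest r, 0.985. The 6 pairs with Ciita had r of 0.665 to 0.819 and rho of 0.515 to 0.770, and the lowest was Ciita with Cd74. All 21 pairs passed on Pearson's r (permutation p adjusted over the 21 pairs, at most 0.0361), and on rho Ciita with Cd74 did not (adjusted p = 0.134). The share of pairs of other genes that would pass was not computed, so this count has no background beside it. Without losartan mouse 3 the range of r was 0.825 to 0.98 for pairs without Ciita and 0.502 to 0.738 for pairs with it. Without the 2 mice farthest from the median, r ran from 0.706 to 0.957 for the pairs without Ciita and from 0.367 to 0.71 for those with it.

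Other class II genes were mixed. Of 5 measured, H2-DMb2, H2-Ea and H2-Eb2 were tested, 2 had a higher and 1 a lower value with aliskiren, and 0 passed the test. Their median difference was 0.01, and 0.02 without losartan mouse 3, with 3 higher and 0 lower. H2-Eb2, a second E beta gene, had 5.72 ± 0.18 with aliskiren and 5.58 ± 0.32 with losartan (SD, n = 5 each). It ran opposite to the 7 genes, with a mean r of -0.853 with the 6 tested genes over the 10 mice and its lowest value, 5.09, in losartan mouse 3. Without that mouse its mean r was -0.746. H2-Oa and H2-Ob, the chains of the DO molecule that restrains DM, lay below the level filter. H2-Ob had 5.18, 3.85, 3.46, 3.90 and 4.09 in aliskiren mice, against 4.01, 3.71, 4.41, 2.99 and 2.87 in losartan mice.

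Endosomal processing was represented by 11 genes of proteases, a thiol reductase, a protease inhibitor and lysosomal membrane proteins. Of these, 4 had a higher and 7 a lower value with aliskiren and 0 passed the test, with a median difference of -0.08. The split was 6 higher and 5 lower without losartan mouse 3, with a median of 0.00681. Ctss, the cathepsin that cuts the invariant chain in antigen presenting cells, had 10.81, 9.32, 8.78, 9.08 and 9.87 in aliskiren mice 1 to 5, against 9.18, 9.87, 11.40, 7.49 and 8.44 in losartan mice 1 to 5. That is a range of 3.92 log2 units over the mice, with the same highest and lowest mouse as H2-Aa. The mean r of Ctss with the 6 tested genes was 0.911, and 0.864 without losartan mouse 3. Its difference between the drugs was 0.30 (SE 0.66, limma adjusted p = 0.984), and 0.83 without losartan mouse 3. Ctsl, which does this work in thymic epithelium, differed by -0.13 (SE 0.14), the endopeptidase Lgmn by -0.15 (SE 0.10) and the thiol reductase Ifi30 by -0.08 (SE 0.10). These ranged far less than Ctss, over 0.87, 0.61 and 0.54 log2 units.

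Of 12 regulators of class II transcription and turnover tested, 8 had a higher and 4 a lower value with aliskiren, 0 passed, and the median difference was 0.01. It was 0.04 without losartan mouse 3, with 9 higher and 3 lower. Rfx5, the DNA-binding subunit of RFX, had 8.23 ± 0.20 with aliskiren and 8.06 ± 0.26 with losartan, and Rfxap, another RFX subunit, 7.32 ± 0.07 with aliskiren and 7.48 ± 0.15 with losartan (SD, n = 5 each). Their mean r with the 6 tested genes was 0.481 for Rfx5 and 0.579 for Rfxap. Without losartan mouse 3 it was 0.521 for Rfx5 and 0.159 for Rfxap. Marchf1, the ubiquitin ligase that removes class II from the surface of dendritic cells, differed by 0.02 (SE 0.10). Marchf8, its relative, had the smallest p of the list, with 10.62 ± 0.10 with aliskiren and 10.40 ± 0.16 with losartan (SD, n = 5 each), and did not pass (limma adjusted p = 0.945).

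Interferon gamma, signalling through its receptor, induces Ciita and thereby class II. Of 11 genes of that pathway tested, 4 had a higher and 7 a lower value with aliskiren, 0 passed, and the median difference was -0.01. Without losartan mouse 3, 10 were higher and 1 was lower, with a median of 0.07. Ifng itself and Socs1 lay below the level filter. The interferon target Gbp2 had 8.22, 8.59, 7.17, 7.57 and 8.30 in aliskiren mice 1 to 5, against 8.01, 8.68, 9.28, 6.48 and 7.97 in losartan mice 1 to 5. It shared its highest and lowest mouse with H2-Aa, and its mean r with the 6 tested genes was 0.861, or 0.798 without losartan mouse 3. Irf1, an interferon-induced transcription factor, had 8.46, 8.996, 7.89, 8.17 and 8.39 in aliskiren mice 1 to 5, against 7.97, 8.71, 9.24, 7.80 and 8.74 in losartan mice 1 to 5. Its mean r was 0.729, and 0.572 without losartan mouse 3. Over the 11 genes tested the mean r ran from 0.266 to 0.888, with 3 genes at 0.8 or more. The median of the list was 0.759, and 0.607 without losartan mouse 3.

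Class I presentation genes serve peptides made in the cytosol, and many of them varied with the class II genes from mouse to mouse as well. Of 16 tested, 5 had a higher and 11 a lower value with aliskiren, 0 passed, and the median difference was -0.03. Leaving out losartan mouse 3 gave 15 higher and 1 lower, with a median of 0.09. Psmb8, a subunit of the immunoproteasome, had 8.80, 8.57, 7.70, 8.35 and 8.22 in aliskiren mice 1 to 5, against 8.29, 8.69, 9.95, 7.36 and 8.06 in losartan mice 1 to 5. The class I heavy chain H2-K1 ranged over 1.75 log2 units, the transporter subunit Tap1 over 1.04 and the light chain B2m over 0.71. Nlrc5, the class I counterpart of Ciita, had 6.44 ± 0.49 with aliskiren and 6.56 ± 0.70 with losartan (SD, n = 5 each). The mean r with the 6 tested class II genes was 0.8 or more for 9 of the 16 genes, among them Psmb8 at 0.921, H2-K1 at 0.895 and B2m at 0.891.

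Of 8 costimulatory genes measured, 4 passed the level filter, and Cd80 and Cd86 did not. The 4 genes tested all had a lower value with aliskiren, with a median of -0.13, and 0 passed. Without losartan mouse 3 the split was 3 higher and 1 lower, with a median of 0.05. Cd40, through which T cells activate antigen presenting cells, had 5.90 ± 0.20 with aliskiren and 6.00 ± 0.36 with losartan (SD, n = 5 each).

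**Figure D3:**
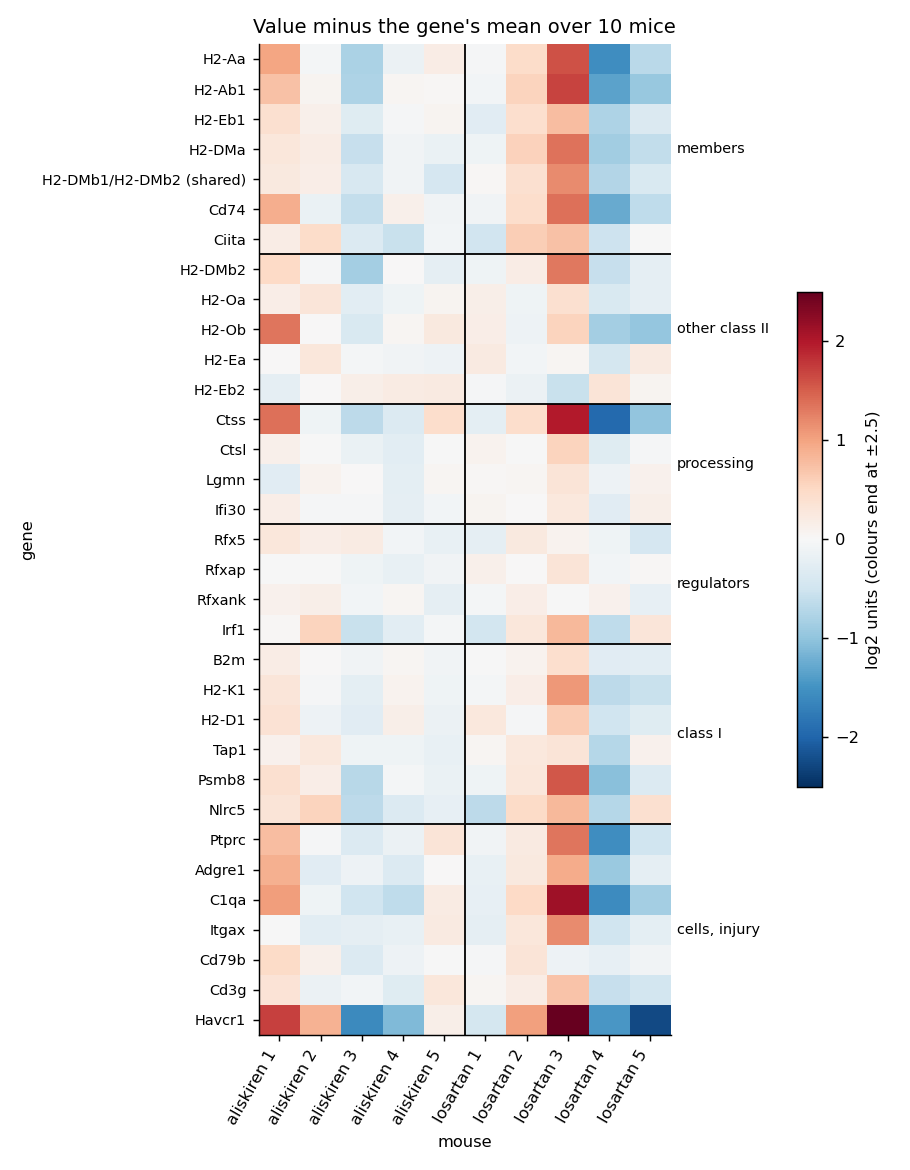
Value minus the mean of that gene over the 10 mice, in log2 units (colour, ending at ±2.5), for the 7 genes and other genes of the lists (y axis) in each mouse (x axis, aliskiren left of losartan). The columns of losartan mouse 3 and aliskiren mouse 1 are mostly red and that of losartan mouse 4 mostly blue from the 7 genes through Ctss, Psmb8 and C1qa, while Rfxank, Ifi30 and H2-Ea stay pale.

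Most macrophage markers varied with the class II genes. The mean level of 16 macrophage markers ranged from 6.93 to 8.01 in aliskiren mice and from 6.27 to 8.67 in losartan mice, with losartan mouse 3 highest and losartan mouse 4 lowest. Of 15 tested, 11 had a higher and 4 a lower value with aliskiren, 0 passed, and the median difference was 0.05. It was 0.45 without losartan mouse 3, with 14 higher and 1 lower. C1qa, a complement subunit made by macrophages, had 9.35, 8.19, 7.79, 7.67 and 8.51 in aliskiren mice 1 to 5, against 8.09, 8.80, 10.42, 6.72 and 7.45 in losartan mice 1 to 5. Of the 15 genes, 11 had a mean r of 0.8 or more with the 6 tested class II genes and the median was 0.895, where the median over 11480 genes ranked was 0.117. The median of the markers was 0.845 without losartan mouse 3. Mertk, with a mean r of -0.646, and Fcgr1, with -0.515, ran the other way, and without losartan mouse 3 they had -0.529 and -0.617. The part of these cells in the class II values was not tested.

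Dendritic cell markers were measured at low levels. Of 9 measured, 4 passed the level filter, 2 of them with a higher and 2 with a lower value with aliskiren and 0 past the test, with a median of -0.03. Leaving out losartan mouse 3 gave 3 higher and 1 lower, with a median of 0.10. The mean level of the list was 5.12 to 5.41 in aliskiren mice and 5.03 to 5.65 in losartan mice, again highest in losartan mouse 3 and lowest in losartan mouse 4. Itgax, the integrin CD11c, had 5.93, 5.67, 5.72, 5.76 and 6.16 in aliskiren mice 1 to 5, against 5.71, 6.22, 7.12, 5.44 and 5.69 in losartan mice 1 to 5. Clec10a, a lectin of dendritic cells and macrophages, ranged over 3.67 log2 units with its highest value, 8.75, in losartan mouse 3. Flt3, the receptor that dendritic cell precursors need, had 6.06 ± 0.05 with aliskiren and 6.22 ± 0.16 with losartan (SD, n = 5 each) and a mean r of -0.504. Without losartan mouse 3 the mean r of Flt3 was -0.629. The markers Zbtb46, Cd209a, Xcr1, Ccr7 and Siglech lay below the level filter.

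Most B and T cell markers lay below the level filter. Of 9 B cell genes measured, only Cd22 and Ighm passed the level filter, and neither passed the test. Both had a lower value with aliskiren, with a median difference of -0.10, and -0.16 without losartan mouse 3. The mean level of the B cell list was 4.76 to 4.90 in aliskiren mice and 4.68 to 5.06 in losartan mice, and its lowest value was in losartan mouse 3, the mouse with the highest value of all 7 class II genes. Single genes did not all follow the list mean. Cd79a had 4.27 and Ms4a1 4.02 in losartan mouse 3, and neither was lowest there. The lowest Cd79a value was 4.08, in aliskiren mouse 3, and the lowest Ms4a1 value 3.37, in losartan mouse 5. Ighm, the heavy chain of IgM, stood out in losartan mouse 2 at 9.75, with 7.30 to 7.45 in the other losartan mice and 7.15 to 8.80 in aliskiren mice. Of 7 T cell genes measured, Cd3e and Cd4 were tested, both had a higher value with aliskiren, with a median of 0.14, or 0.08 without losartan mouse 3, and 0 passed. The mean level of the T cell list was 4.95 to 5.11 in aliskiren mice and 4.86 to 5.10 in losartan mice.

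Of 4 tubular injury genes tested, 3 varied closely with the class II genes. Havcr1, the proximal tubule injury marker KIM-1, had 9.37, 8.53, 6.08, 6.57 and 7.82 in aliskiren mice 1 to 5, against 7.23, 8.69, 10.76, 6.22 and 5.41 in losartan mice 1 to 5. Its range of 5.34 log2 units was wider than that of any of the 7 genes. Between the drugs, 3 of the 4 had a higher and 1 a lower value with aliskiren, 0 passed, and the median difference was 0.10, or 0.82 without losartan mouse 3. Vcam1, an adhesion molecule of injured tubules and activated endothelium, had a mean r of 0.901 with the 6 tested class II genes, Havcr1 of 0.888 and Lcn2 of 0.856. Without losartan mouse 3 the mean r was 0.842 for Vcam1, 0.819 for Havcr1 and 0.761 for Lcn2. Krt19, a keratin, had a mean r of 0.598, and of 0.140 without losartan mouse 3. It differed by -1.10 (SE 0.48, limma adjusted p = 0.945).

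Markers of other structures of the kidney and of blood and adrenal tissue were set beside the class II genes in the same way. The median of the mean r was -0.459 over 8 proximal tubule genes, -0.182 over 5 genes of the thick limb and distal tubule, -0.05 over 4 medulla genes and 0.634 over 6 endothelial genes. For 2 podocyte genes it was 0.690, for 2 blood genes -0.383 and for 1 adrenal gene -0.248. With losartan mouse 3 left out it was -0.164 for the proximal tubule, 0.0843 for the thick limb and distal tubule, -0.359 for the medulla, 0.490 for endothelium, 0.624 for podocytes, -0.0790 for blood and -0.477 for the adrenal gene. None of these genes passed the test between the drugs. The median difference was -0.28 for the 6 endothelial genes, all with a lower value with aliskiren, -0.28 for the thick limb and distal tubule, -0.20 for the medulla, -0.21 for the adrenal gene, -0.08 for the podocyte genes, -0.04 for the proximal tubule and -0.01 for the blood genes. With losartan mouse 3 left out it was -0.20 for endothelium, with 1 gene higher and 5 lower, -0.15 for the thick limb and distal tubule, -0.11 for the medulla, -0.20 for the adrenal gene, 0.00562 for the podocyte genes, -0.13 for the proximal tubule and -0.18 for the blood genes.

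Fat and lymphoid tissue that could adhere to a cortex sample were checked by their own lists. The perirenal fat list had 2 genes tested, both lower with aliskiren, with a median of -0.29, and 0.64 without losartan mouse 3. Adipoq, an adipocyte hormone, had 3.17, 7.35, 9.90, 3.59 and 3.96 in aliskiren mice 1 to 5, against 3.48, 3.43, 12.96, 3.82 and 3.53 in losartan mice 1 to 5. Aliskiren mouse 3, with the second highest Adipoq value, had the lowest H2-Aa of the aliskiren mice, while losartan mouse 3 had the highest value of both. Fabp4 and Retn, the fat genes tested, had a median of the mean r of 0.494, and of -0.172 without losartan mouse 3. Cxcl13, the lymphoid chemokine that was the 1 lymph node and spleen gene tested, had 8.27 in losartan mouse 3, 4.72 to 5.80 in the other losartan mice and 4.98 to 6.09 in the aliskiren mice. Its difference was -0.33, and 0.31 without losartan mouse 3. The part of this tissue in the values of losartan mouse 3 was not tested.

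Relations with 5 fixed readouts were tested over the 10 mice for all 7 genes, 35 relations in all, with permutation p adjusted over the 35. Pearson's r was positive in all 35 and 28 passed. The share of all 11486 genes tested that would pass with these readouts was not computed, so the counts have no background beside them. With Ptprc, which encodes the leukocyte phosphatase CD45, r ran from 0.676 for Ciita to 0.978 for H2-Aa and rho from 0.685 to 0.964, and all 7 passed on r (adjusted permutation p of 0.00035 to 0.0336) and 6 on rho. Without losartan mice 3 and 4, the 2 farthest from the median of Ptprc, r was 0.409 to 0.955 and 4 of 7 passed. Ptprc itself had 8.49, 7.69, 7.37, 7.56 and 8.04 in aliskiren mice 1 to 5, against 7.63, 7.93, 9.05, 6.16 and 7.21 in losartan mice 1 to 5, the same extremes as for H2-Aa.

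With Adgre1, an adhesion receptor of macrophages, r ran from 0.674 to 0.927 and rho from 0.624 to 0.842, and all 7 passed on r (adjusted permutation p of 0.0008 to 0.0397) and 5 on rho. Without aliskiren mouse 1 and losartan mouse 3, r was 0.569 to 0.841 and 1 of 7 passed. With Itgax, r ran from 0.698 to 0.872 and rho from 0.503 to 0.879, with all 7 past on r (adjusted permutation p of 0.00192 to 0.0141) and 5 on rho. Without losartan mouse 3 alone, 5 of 7 passed. Without losartan mice 2 and 3, r was 0.267 for the shared DM beta probe set to 0.746 for H2-Aa, and 0 of 7 passed over the 8 mice left. Here r itself was lower, and with fewer mice a given r is also less likely to pass. The part of each in the lost calls was not tested.

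With Havcr1, r ran from 0.788 for Ciita to 0.929 for H2-Ab1 and rho from 0.697 to 0.939, and all 7 passed on r (adjusted permutation p of 0.0008 to 0.0117) and on rho. Without losartan mice 5 and 3, r was 0.773 to 0.860 and 6 of 7 passed. With Cd79b, a B cell receptor chain that lay below the level filter, r ran from 0.365 to 0.549 and rho from 0.442 to 0.60, and 0 of 7 passed (adjusted permutation p of 0.121 to 0.297). Without losartan mouse 3, r with Cd79b was 0.747 to 0.853 and all 7 passed. Without losartan mouse 2 and aliskiren mouse 1, the 2 farthest from the median of Cd79b, r was 0.243 to 0.426 and 0 of 7 passed. The result with Cd79b thus depended on which mice were included. On values centred within each drug, 28 of the 35 passed. Adipoq values fell into separate clusters, so no correlation with it is given.

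**Figure D4:**
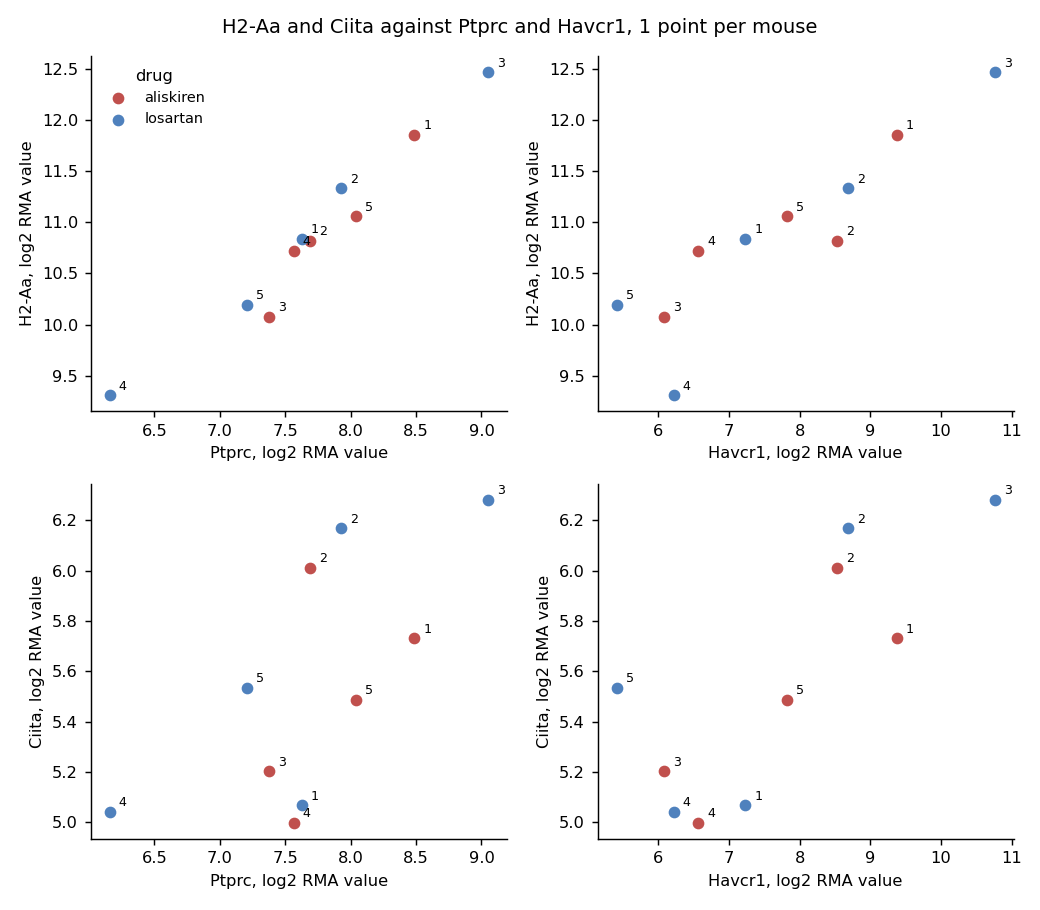
H2-Aa and Ciita (y axes) against Ptprc and Havcr1 (x axes), log2 RMA values with 1 numbered point per mouse, aliskiren in red and losartan in blue. H2-Aa lies close to a line with Ptprc (r = 0.978), Ciita scatters more widely (r = 0.676), and both drugs fall along the same trend.

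The genes whose pattern over the 10 mice was most like that of the class II genes were found by their mean r with the 6 tested genes among 11480 other genes, as a description. The 10 most alike were Cd14, Ly6e, Aif1, Tnfaip3, Cd52, Psmb8, Pik3ap1, Fermt3, Tmsb4x and Cmtm7, with mean r of 0.933 for Cd14 to 0.919 for Cmtm7. Cd14 is a lipopolysaccharide coreceptor of monocytes and macrophages, Aif1 a marker of macrophages, Cd52 a surface glycoprotein of leukocytes and Fermt3 an integrin activator of blood cells. In all, 65 genes had a mean r of 0.9 or more. Cd14 had a difference of -0.07 (SE 0.67) between the drugs over a range of 3.82 log2 units. Without losartan mouse 3, 6 of the 10 were still among the 10 most alike, and Aif1 came first with 0.907. Ubd, a ubiquitin-like protein induced by interferon gamma, entered the 10 most alike without that mouse, with a mean r of 0.889. All these correlations rest on the same 10 arrays, which they share.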

How the data were processed

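RNA of the renal cortex was hybridised to Affymetrix mouse arrays. Per the submitters' processing notes, the authors used RMA and Affymetrix Expression Console 1.1. The values they deposited, 1 for each probe set, are on the log2 scale, as their range shows. RMA brings the arrays to a common distribution, so a difference in total RNA is no longer visible, and probe affinities differ, so levels are not compared between genes. Arrays have no depth, and their number limits the precision. No 2 arrays were identical, over 45 pairs. Of 45101 probe sets 64 were controls. The platform annotation gave 34945 of the other 45037 1 symbol, 932 several and 9160 none.

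The probe set with the highest mean stood for a gene. Genes at or above 5.53, the median level of non-control probe sets, were tested, 11486 in all. Aliskiren minus losartan was fitted by lmFit and eBayes of limma 3.58.1 (R 4.3.3), two-sided, with Benjamini-Hochberg adjustment over all genes tested. Correlations over mice used two-sided permutation tests with 100000 resamples in scipy 1.17.1. The 7 genes, the gene lists and the readouts were chosen with earlier results of these data known. Named genes are the 7, up to 4 genes of smallest p per list, a fixed set of single genes that includes H2-K1, B2m, Tap1, Ctss, Ptprc and Havcr1, and the 10 genes most alike. Gbp2, C1qa, Cd79a, Ms4a1 and list genes named only as under the level filter lie outside this rule and were chosen after their values were seen. Fits were repeated with other filters, probe sets, scalings, variance models and weights, with a replicate block and with mice left out. Nothing says that mice shared a litter or batch, and p-values measure the spread between these mice. Deviations of mice with the same number correlated at -0.23 to 0.42. Mice with different numbers were not compared, so this does not show whether the numbers pair mice. Promoters are from RefSeq. Promoters of 4 of the 7 genes were in the table used here. The fit was tested on simulated data.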

Additional observations from a re-analysis of the deposited data

Results flagged for a closer look

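No value of the 7 class II genes stood far enough from its group. Over 152 groups of 5 mice of the genes named, 6 single mice did, where chance gives about 1 group in 20. Adgre1 was 6.74 in aliskiren mouse 1, with 5.51 to 5.86 in the other aliskiren mice. Adipoq was 12.96 in losartan mouse 3, with 3.43 to 3.82 in the other losartan mice, and Fabp4 13.79, with 9.46 to 10.15 in the others. Krt19 was 9.07 in the same mouse, with 6.32 to 7.06 in the others. Tap1 was 5.89 in losartan mouse 4, with 6.65 to 6.93 in the other losartan mice. Ighm was 9.75 in losartan mouse 2, with 7.30 to 7.45 in the others.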

How the results depend on the processing

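With 5 mice per drug, differences smaller than the intervals given could not be resolved. With the main settings 0 of the 6 tested class II genes were called. The other scalings, variance models and array weights, no level filter and the probe set of highest variance also gave 0 of 6, the stricter level filter gave 0 of 4 and the mean of all probe sets 0 of 5. The median difference of the 6 genes was 0.05 and lay between -0.29 and 0.36 when each mouse was left out in turn. Over those fits the difference ran from -0.30 to 0.49 for H2-Aa, -0.29 to 0.47 for H2-Ab1, -0.0892 to 0.30 for H2-Eb1, -0.37 to 0.18 for H2-DMa, -0.41 to 0.0682 for the shared DM beta probe set, -0.24 to 0.42 for Cd74 and -0.28 to 0.0335 for Ciita. Of the other settings, 2 turned a sign: Ciita was at 0.00926 as the mean of its probe sets, and H2-DMa at 0.0950 without losartan mouse 3 and aliskiren mouse 1 together. With the mouse number as a replicate block the median difference was 0.05, 0 genes were called and 450 passed at an unadjusted p under 0.05, against 542 without it. Of 35 relations with the readouts, 28 passed, 30 without losartan mouse 3 and 11 without the 2 mice farthest from the median of each readout. The 30 were not the same relations as the 28 with more added. They held 6 of 7 with Ptprc, 6 with Adgre1, 5 with Itgax and 6 with Havcr1, where all 7 had passed. The 7 with Cd79b, where 0 had passed, made up the rest. Of the 10 genes most alike, 6 were shared with the ranking without losartan mouse 3. The cause of these changes was not tested, and the fits with fewer mice have fewer samples.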
